A study of Homo sapiens with 21 samples.

Results

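Chemokines are small secreted proteins that steer the movement of leukocytes, and chemokine receptors are the membrane proteins that read them. The genes described here were chosen by name: every human CCL, CXCL, CCR and CXCR gene, together with XCL1, XCL2, XCR1, CX3CL1, CX3CR1, the atypical receptors ACKR1 to ACKR4 and CCRL2, leaving out pseudogenes and antisense genes. This gave 66 of the 58174 gene identifiers in the deposited tables, 43 of them ligands and 23 receptors. Their RNA was measured in OCI-AML5, an established human acute myeloid leukemia cell line, exposed to UM171, a small molecule that expands blood stem cells in culture.

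There were 21 libraries in 7 groups of 3. In 5 groups the labels name only the cell line: DMSO, the solvent, with a time of 72 h, and UM171 at 500 nM for 6, 24, 48 or 72 h. The study's figure legends give a lower dose, and a heading in its tables places these DMSO libraries at the start of the time course, so their true time is uncertain. The labels name no guide RNA for these libraries. In the other 2 groups clones expressed sgEPCR, a CRISPR guide RNA against PROCR, the gene of the endothelial protein C receptor EPCR, and were exposed for 24 h to DMSO or to UM171 at 500 nM. The labels call these clones both EPCR null and an EPCR knockdown, and do not say which library came from which clone. All libraries were made from polyadenylated RNA of the same line. Nothing in the labels says that replicates were separate cultures, so the p-values below measure only the spread between these samples, which may be technical.

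Library totals lay between 24.3 and 51.5 M counts. Mitochondrial genes took 35.9% of the counts of sgEPCR DMSO replicate 1 and 32.2% of those of sgEPCR UM171 replicate 2, while the other 19 libraries lay between 7.73% and 13.5%, and results on sgEPCR cells are therefore given with and without these 2 libraries. PROCR rose in UM171 at 24 h in control cells (log2 fold change 3.71, with an SE, or standard error, of 0.13, adjusted p = 1.9e-08, edgeR's quasi-likelihood test). In sgEPCR cells it moved by 0.65 on the log2 scale with an SE of 0.12. Of 10 myeloid markers 9 reached 1 TPM, among them CD33 at 34.6 to 179 TPM, whereas CD14, a defining marker of monocytes, never exceeded 0.42 TPM.

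The family is named after the spacing of the first cysteines of the protein. CXC ligands that carry a short glutamate, leucine and arginine motif act on CXCR1 and CXCR2 and attract neutrophils, and CXCL8, or interleukin 8, is the best known of them. CC ligands such as CCL2, CCL3 and CCL5 attract monocytes and T cells through receptors such as CCR1 and CCR2, and CXCR4, the receptor of CXCL12, holds hematopoietic stem and leukemia cells in the bone marrow. Many ligand genes are controlled by NF-kB, a family of transcription factors activated by inflammatory signals, and atypical receptors such as ACKR2 take up ligands without the usual G protein signal.

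The genes of the CXCR1 and CXCR2 ligands lie side by side on chromosome 4, and their promoters share a run of letters of the kind that NF-kB binds. The 6 genes CXCL8, CXCL6, CXCL1, CXCL5, CXCL3 and CXCL2 lie within chr4:73740519-74099196 (GRCh38). RefSeq promoters of GRCh38.p14, running from 250 bases before to 50 after the start of the gene, were found for 46 of the 66 genes. The letters GGAATTTCC, searched on both strands, occurred in 8 of these 46 (17.4%) and in 0.461% of all 35116 promoters. The 8 were these 6 genes with CXCL10 and CXCL11. A looser form, GGG and TTCC with any 3 bases between them, which overlaps the first motif wherever a G precedes it, was present in 26.1% of the 46 and 6.52% of all promoters, and TGANTCA, the AP-1 type motif, in 19.6% and 7.71%. In each search a gene of the 46 counted once if any of its promoter entries matched. All promoters were counted by entry, so the paired shares differ in unit. The stretch from base -100 to base -41 before the start is shown for the 6 clustered genes, with GGAATTTCC in capitals, because their values are described together below. The stretches are chr4:73740469-73740528 for CXCL8, chr4:73836578-73836637 for CXCL6 and chr4:73869293-73869352 for CXCL1 on the plus strand. Those on the minus strand are chr4:73998718-73998777 for CXCL5, chr4:74038730-74038789 for CXCL3 and chr4:74099236-74099295 for CXCL2.
CXCL8: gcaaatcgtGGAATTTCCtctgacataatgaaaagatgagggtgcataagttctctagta
CXCL6: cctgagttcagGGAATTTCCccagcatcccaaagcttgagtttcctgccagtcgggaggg
CXCL5: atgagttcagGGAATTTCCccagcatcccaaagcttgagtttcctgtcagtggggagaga
CXCL1: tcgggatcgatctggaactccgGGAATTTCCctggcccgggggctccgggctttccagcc
CXCL2: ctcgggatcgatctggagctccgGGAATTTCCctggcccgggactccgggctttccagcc
CXCL3: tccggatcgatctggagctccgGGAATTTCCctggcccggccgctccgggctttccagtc
CXCL5, which carries the same letters, had 0 counts in every library. A match describes these letters only and is no evidence that a factor was bound.

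Most of the family was not detected in these cells or was too low to test. Of the 66 genes, 15 had 0 counts in all 21 libraries, 10 more never exceeded 3 counts, and another 14 were too low to be tested, with at most 15 counts and 1.07 TPM (relative transcript abundance, corrected for transcript length and library size) in any library. Among them were the ligands CCL7, CCL8, CCL18, CCL24 and CXCL10 and the receptors CCR3 and CXCR3. The untested genes include CXCL12, the ligand of CXCR4, and CXCL9, both at 0 throughout. Some untested ligands had more summed counts in UM171 than in DMSO, beyond counting error and with no test between libraries, and those named here were chosen after their values were seen. CCL7 had 24 counts over the 48 h group and 1 in DMSO, a ratio of 24.2 scaled for depth (95% counting interval 3.95 to 996). CCL8 had 17 at 72 h and 0 in DMSO, and 20 and 0 in sgEPCR cells, at least 5.73-fold and 6.52-fold higher with a floor of 3 counts over the group at 0. CCL24 had 22 and 1 in sgEPCR UM171 and DMSO, a ratio of 21.5 (3.48 to 887). The remaining 27 were tested, 25 of them among the 16575 genes of the time course and 24 among the 15901 genes of the 4 groups with and without sgEPCR. A gene counts as changed below where its adjusted p was under 0.0001 and its change over 2-fold, the limits of the study's heat maps. By these limits 20 of the 27 changed in at least 1 comparison, and CXCL16, CXCR1, CXCR2, CXCR5, CCR4, CCR10 and CCRL2 did not pass them in any. The share of all genes that changed in at least 1 comparison was not computed. This count therefore cannot be set against it, and shares per comparison are given below.

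A few ligands made up most of the chemokine RNA, and the sum over the family was larger in UM171 than in DMSO, most so from 24 h on. Added over the 66 genes, DMSO libraries held 533 to 590 TPM, UM171 libraries 715 to 739 TPM at 6 h, 1786 to 2503 at 24 h, 3515 to 4889 at 48 h and 3114 to 3499 at 72 h. The 6 h libraries lay above all DMSO libraries, and the groups at 24 h and later lay above all DMSO and 6 h libraries. CXCL8, CCL2 and CCL5 together took 55.7% of the sum in the lowest library and 92.7% in the highest.

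Few of these genes were higher in UM171 than in DMSO at 6 h, and about 10 to 12 of them were from 24 h on. At 6 h, 3 of the 25 tested genes rose and none fell, where 6.78% of all tested genes rose and 0.247% fell. At 24 h, 10 rose and 1 fell, against a background of 9.03% of all genes rising and 4.7% falling. At 48 h, 12 rose and 1 fell (11.7% and 4.67% of all genes), and at 72 h, 12 rose and none fell (15% and 5.8%). The median log2 fold change of the 25 was 0.49, 0.88, 1.58 and 2.00 at 6, 24, 48 and 72 h, while that of all tested genes lay between -0.01 and 0.02. Placing CXCL11, which had no counts in DMSO, at its lower bound left the medians at 24, 48 and 72 h at these values. Genes with few counts in DMSO, such as CXCL11, CCL20, CCL4L2 and CCR7, passed the low-count filter only through libraries in UM171. Higher counts in UM171 were thus a condition of their being tested. All 4 comparisons share the same DMSO libraries, which have 1 time only. At any other time, effects of UM171 and of time in culture cannot be told apart. In whole cultures fewer cells of a type and less RNA per cell cannot be told apart either.

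With a limit of adjusted p under 0.05 and no minimum fold, 18, 18, 21 and 24 of the 25 changed in either direction at 6, 24, 48 and 72 h, but so did 62.1%, 69.7%, 72.1% and 75.6% of all genes. By that limit 18, 19 and 16 changed between 6 and 24 h, 24 and 48 h and 48 and 72 h, against 67.1%, 45.7% and 57.3% of all genes. With a 2-fold minimum beside it, 7 of the 25 changed at 6 h and 6 between 48 and 72 h, against 12.5% and 7.35%.

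Most of the rises were among the ligands. At 48 h, 11 of the 14 tested ligands rose, whereas of the 11 tested receptors ACKR2 rose and CCR2 fell. The ligand genes sit in a few clusters. In the 10-gene cluster at chr17:35871491-36212878, all 6 tested genes (CCL5, CCL23, CCL3, CCL4, CCL3L3 and CCL4L2) changed in at least 1 comparison, and in the chromosome 4 cluster 5 of 6 did. These counts too have no share over all genes beside them. In the 6-gene cluster at chr17:34255274-34363233 only CCL2 had enough counts to be tested.

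**Figure D1:**
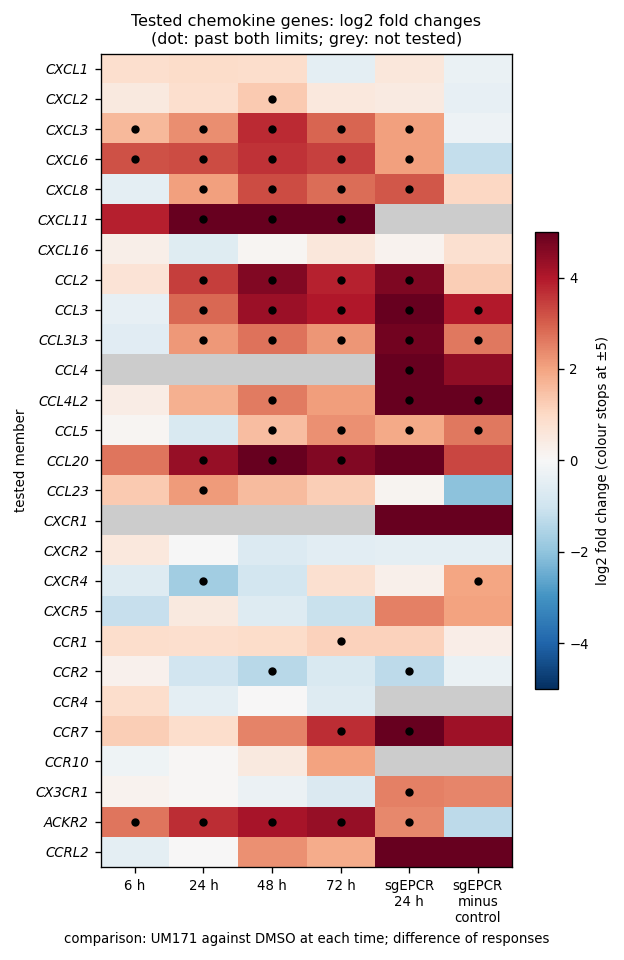
Log2 fold changes (colour) of the 27 tested chemokine genes (vertical axis) in UM171 against DMSO at 6, 24, 48 and 72 h, in sgEPCR cells at 24 h, and the sgEPCR response minus the control response. Dots mark changes past both limits and grey means not tested: at 48 h 12 genes rose and 1 fell, and 5 genes carry a dot in the last column.

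CXCL8 was the most abundant of the neutrophil attracting ligands and changed late. It measured 176, 197 and 201 TPM in DMSO and 149, 156 and 154 TPM at 6 h, and it reached 713, 654 and 825 TPM at 24 h. At 48 h the libraries had 1783, 2012 and 1194 TPM and at 72 h 1148, 1252 and 1416 TPM. Every library from 24 h on lay above every DMSO library, and all 6 h libraries lay below. The log2 fold change was -0.48 (SE 0.11, adjusted p = 8.6e-04) at 6 h and 2.03 (SE 0.11, adjusted p = 2.8e-11) at 24 h. It was 3.28 (SE 0.11) at 48 h and 2.81 (SE 0.11) at 72 h, with adjusted p of 8.4e-14 and 2.9e-13. Between 6 and 24 h CXCL8 rose by 2.51 on the log2 scale (SE 0.11, adjusted p = 5.2e-12).

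CXCL3 and CXCL6, low-abundance neighbours of CXCL8, were already up at 6 h. CXCL6 measured 0.33, 0.49 and 0.33 TPM in DMSO and 3.16, 3.50 and 4.10 TPM at 6 h, a log2 fold change of 3.19 (SE 0.17, adjusted p = 1.2e-10, edgeR). Its libraries had 3.51, 3.34 and 3.47 TPM at 24 h, 4.29, 4.97 and 3.41 TPM at 48 h and 3.77, 4.18 and 3.68 TPM at 72 h, all above DMSO, and the change from 6 to 24 h was 0.06 (SE 0.12, adjusted p = 0.70). CXCL3 measured 0.58, 0.52 and 0.60 TPM in DMSO and 1.94, 1.79 and 1.88 TPM at 6 h, a log2 fold change of 1.60 (SE 0.21, adjusted p = 4.7e-06). It went on rising, to 3.11, 2.74 and 2.84 TPM at 24 h and 6.75, 8.69 and 5.49 TPM at 48 h, with a log2 fold change of 1.43 between these times (SE 0.14, adjusted p = 4.3e-07). At 72 h CXCL3 measured 3.41, 4.45 and 4.78 TPM, still above every DMSO and 6 h library.

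CXCL1 and CXCL2, close relatives of CXCL3, moved less. CXCL1 measured 48.1, 60.1 and 57.2 TPM in DMSO, 106, 111 and 118 TPM at 6 h, 111, 102 and 97.55 TPM at 24 h, 95.85, 103 and 90.99 TPM at 48 h and 41.0, 42.2 and 40.3 TPM at 72 h. The libraries at 6, 24 and 48 h were all above DMSO and those at 72 h all below. Its log2 fold changes against DMSO, between 0.86 and 0.90 up to 48 h and -0.48 at 72 h, stayed under 2-fold, and only the step from 48 to 72 h passed both limits, where CXCL1 fell by 1.34 on the log2 scale (SE 0.07, adjusted p = 1.4e-10). In that step CXCL1 fell and CXCR4 rose, 2 of the 25 genes, where 0.76% of all genes fell and 2.59% rose. CXCL2 measured 9.89, 11.96 and 10.98 TPM in DMSO and rose at 48 h to 27.7, 25.4 and 24.3 TPM (log2 fold change 1.29, SE 0.07, adjusted p = 2.7e-11). At 6 h it measured 15.6, 18.01 and 18.04 TPM, at 24 h 19.8, 18.7 and 20.05 TPM and at 72 h 16.1, 16.8 and 16.3 TPM, all above DMSO but under 2-fold. The canonical transcripts of CXCL1 and CXCL2 are 90.9% identical over their aligned bases, and those of CXCL1 and CXCL3 81.7%, so reads may be split unevenly among the 3 genes.

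CXCL11, a ligand of CXCR3, went from no counts to a low level. All DMSO libraries had 0 counts, the 6 h libraries 3, 1 and 1, those at 24 h 8, 10 and 5, those at 48 h 16, 11 and 10, and those at 72 h 27, 30 and 39. With a floor of 3 counts over the DMSO group, CXCL11 was at least 6.78-fold higher at 24 h, 12.4-fold at 48 h and 32.3-fold at 72 h (adjusted p = 9.0e-06, 4.6e-07 and 5.7e-09). At 72 h its level was 0.79, 0.86 and 1.05 TPM, low beside CXCL8. CXCL16, a membrane-bound ligand of CXCR6, measured 21.1 to 21.7 TPM in DMSO, 13.4 to 16.0 TPM at 24 h and 34.1 to 38.7 TPM at 72 h, and its log2 fold changes of -0.62 (SE 0.07) and 0.57 (SE 0.06) stayed under 2-fold.

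CCL2, the main attractant of monocytes, was among the most abundant chemokine transcripts. Its DMSO libraries had 80.7, 89.3 and 95.3 TPM and its 6 h libraries 161, 162 and 155 TPM, a log2 fold change of 0.68 (SE 0.13, adjusted p = 2.3e-04, edgeR), short of the limits. At 24 h CCL2 measured 893, 810 and 1315 TPM and at 48 h 2398, 2299 and 1790 TPM. At 72 h it measured 1257, 1414 and 1349 TPM. No library in UM171 overlapped DMSO, and CCL2 rose by 3.45 on the log2 scale at 24 h (SE 0.13, adjusted p = 5.3e-13), 4.62 at 48 h (SE 0.14, adjusted p = 1.7e-14) and 3.84 at 72 h (SE 0.13, adjusted p = 7.6e-14). The step from 48 to 72 h, -0.78 (SE 0.12, adjusted p = 2.3e-05), stayed under 2-fold.

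CCL5, or RANTES, an attractant of T cells and monocytes, followed another course. It measured 80.5, 79.8 and 80.5 TPM in DMSO, 98.1, 102 and 98.1 TPM at 6 h and 45.6, 49.0 and 55.5 TPM at 24 h, when all 3 UM171 libraries lay below DMSO by a log2 fold change of -0.74 (SE 0.07, adjusted p = 5.7e-08), under the 2-fold limit. At 48 h it had risen to 242, 223 and 219 TPM and at 72 h to 397, 429 and 412 TPM. The log2 fold changes against DMSO were 1.53 (SE 0.07, adjusted p = 2.2e-12) and 2.27 (SE 0.07, adjusted p = 1.3e-14), and CCL5 rose by 2.27 between 24 and 48 h (SE 0.07, adjusted p = 8.1e-13). In that step 6 of the 25 genes rose and none fell, against 2.51% and 0.338% of all genes. The others were CCL2, CCL3, CCL20, CXCL3 and CXCL8. The counts of CCL3 and its near copy CCL3L3 added up changed by 0.87 on the log2 scale in this step (SE 0.13, adjusted p = 4.7e-05), under 2-fold, while the share assigned to CCL3 went from 30.5% to 33.4% up to 37.0% to 49.5%. CCL3 lost its call in this step, at adjusted p = 1.1e-04, without UM171 24 h replicate 1, and CCL20 in each of the 6 fits that left out a 24 h or 48 h library (adjusted p from 1.1e-04 to 6.6e-04).

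CCL3 and CCL3L3, near copies that attract monocytes, rose together from 24 h. CCL3 measured 1.92, 1.96 and 2.41 TPM in DMSO, 2.23, 1.65 and 1.85 TPM at 6 h, 16.0, 14.2 and 27.6 TPM at 24 h, 57.0, 51.6 and 31.5 TPM at 48 h and 38.6, 40.5 and 41.5 TPM at 72 h. CCL3L3 measured 7.13, 7.58 and 7.39 TPM in DMSO, 5.17, 6.15 and 6.21 TPM at 6 h, 34.1, 32.1 and 53.9 TPM at 24 h, 57.5, 54.8 and 52.7 TPM at 48 h and 38.3, 41.4 and 41.9 TPM at 72 h. From 24 h on, both genes lay above DMSO in every library, and at 6 h neither passed the limits. The log2 fold change at 48 h was 4.28 (SE 0.24, adjusted p = 3.7e-11) for CCL3 and 2.72 (SE 0.15, adjusted p = 5.0e-11) for CCL3L3. Their canonical transcripts are 96.2% identical, and the share of their joint counts assigned to CCL3 went from 19.96% to 24.6% in DMSO to 49.4% to 49.5% at 72 h, so their separate levels are uncertain. The sum of both, a value chosen after seeing the data, rose by 3.24 on the log2 scale at 48 h (SE 0.16, adjusted p = 8.1e-12).

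CCL4L2, the near copy of CCL4, passed the limits in the time course only at 48 h. It had 3, 5 and 5 counts in DMSO, 7, 7 and 3 at 6 h, 20, 15 and 16 at 24 h, 41, 23 and 17 at 48 h and 10, 18 and 32 at 72 h. All libraries from 24 h on were above DMSO, and the change at 48 h had a log2 fold change of 2.59 (SE 0.43, adjusted p = 3.4e-05). The call was lost, at adjusted p of 1.2e-04 to 3.6e-04, without any of the DMSO libraries or without 48 h replicate 1 or 2. CCL20, the ligand of CCR6, had 0, 1 and 2 counts in DMSO, 7, 7 and 7 at 6 h, 27, 33 and 19 at 24 h, 82, 53 and 48 at 48 h and 29, 28 and 30 at 72 h, with no overlap between DMSO and any time. The ratio of its counts at 48 h to those in DMSO, scaled for depth, was 61.6 (95% counting interval 20.7 to 301.3, adjusted p = 2.1e-10), and at 24 and 72 h it was 23.3 and 29.3. CCL23, a ligand of CCR1, passed the limits in the time course at 24 h, from 1.29, 0.91 and 2.17 TPM in DMSO to 7.36, 5.10 and 5.68 TPM, and was at 2.82 to 4.91 TPM in all libraries of the other times (log2 fold change at 24 h 2.15, SE 0.29, adjusted p = 3.8e-06). All its UM171 libraries lay above DMSO, with log2 fold changes of 1.31, 1.58 and 1.25 at 6, 48 and 72 h (adjusted p = 1.4e-03, 1.7e-04 and 1.5e-03).

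**Figure D2:**
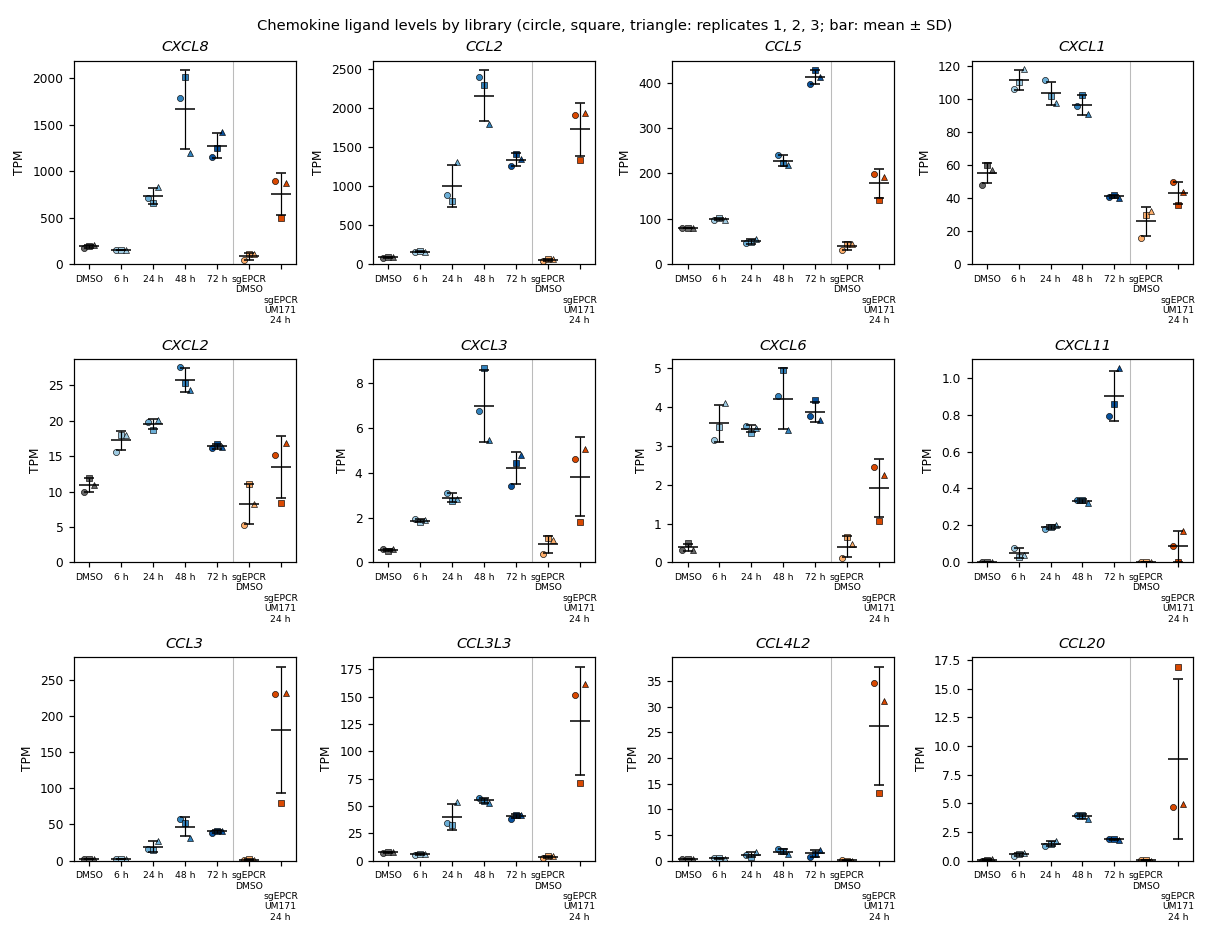
Levels (TPM, vertical axes from 0) of 12 chemokine ligands in every library of the 7 groups (horizontal axes), with mean ± SD. CXCL8 and CCL2 have their highest means at 48 h, CCL5 is highest at 72 h, CXCL1 is back below DMSO at 72 h, and CCL3, CCL3L3 and CCL4L2 are highest in sgEPCR cells in UM171.

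The receptors moved in different directions. CXCR4 measured 28.8, 24.8 and 27.0 TPM in DMSO, 19.2, 19.4 and 19.4 TPM at 6 h and 7.90, 8.97 and 7.82 TPM at 24 h. It then measured 14.12, 14.38 and 12.98 TPM at 48 h and 50.5, 45.9 and 52.6 TPM at 72 h. All libraries from 6 to 48 h lay below DMSO and all at 72 h above. CXCR4 fell by 1.74 on the log2 scale at 24 h (SE 0.08, adjusted p = 4.1e-12, edgeR) and rose by 1.75 between 48 and 72 h (SE 0.07, adjusted p = 1.3e-11), while its change at 72 h against DMSO, 0.81 (SE 0.07, adjusted p = 8.9e-09), was under 2-fold.

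CCR2, the receptor of CCL2, fell at 48 h. Its libraries had 40.8, 44.7 and 46.8 TPM in DMSO, 52.5, 59.8 and 59.5 TPM at 6 h, 24.6, 23.5 and 21.1 TPM at 24 h and 16.5, 17.7 and 13.9 TPM at 48 h, and 26.6, 26.2 and 29.2 TPM at 72 h. From 24 h on every library was below DMSO. The log2 fold change was -0.96 (SE 0.06, adjusted p = 2.7e-10) at 24 h, just under 2-fold, -1.41 (SE 0.06, adjusted p = 2.2e-12) at 48 h and -0.76 (SE 0.06) at 72 h. From 6 to 24 h CCR2 and CXCR4 fell while 6 genes rose, against 6.43% of all genes falling and 3.61% rising. Of these 6 (ACKR2, CCL2, CCL20, CCL3, CCL3L3 and CXCL8), CCL20 lost its call without any 6 h or 24 h library (adjusted p from 1.5e-04 to 5.5e-04), and ACKR2 dropped below 2-fold without 6 h replicate 2 or 24 h replicate 3.

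CXCR2, the receptor shared by CXCL1, CXCL2, CXCL3, CXCL6 and CXCL8, was expressed at 29.4 to 30.1 TPM in DMSO, 46.2 to 51.4 TPM at 6 h and 18.1 to 19.8 TPM at 48 h. Its log2 fold changes, 0.54 at 6 h and -0.68 at 48 h, did not reach 2-fold. CXCR1, which binds CXCL8 and CXCL6, had at most 14 counts in any library of the time course and was not tested there. CCR1, a receptor of CCL3, CCL5 and CCL23, rose past the limits at 72 h, from 3.25, 2.91 and 2.97 TPM in DMSO to 6.92, 6.72 and 7.49 TPM, with 5.18 to 6.50 TPM in all libraries from 6 to 48 h (log2 fold change 1.14, SE 0.07, adjusted p = 2.5e-10). CCR7, the lymph node homing receptor, rose at 72 h from 2, 1 and 2 counts to 18, 23 and 31, with at most 15 counts in any earlier library (log2 fold change 3.68, SE 0.49, adjusted p = 3.0e-06). CCR4, CCR10 and CXCR5, receptors of lymphocytes, had between 0 and 27 counts in the 21 libraries and no call. CX3CR1, the receptor of CX3CL1, lay between 1.17 and 3.10 TPM in all 15 libraries without a call.

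ACKR2, a receptor that scavenges inflammatory CC ligands, rose at every time. It measured 0.78, 0.37 and 0.56 TPM in DMSO, 5.06, 3.84 and 5.68 TPM at 6 h, 8.52, 8.41 and 9.22 TPM at 24 h, 11.2, 12.6 and 10.2 TPM at 48 h and 13.57, 14.99 and 14.42 TPM at 72 h. No group overlapped DMSO. Its log2 fold change was 2.69 (SE 0.16, adjusted p = 5.4e-10, edgeR) at 6 h and 4.35 (SE 0.14, adjusted p = 3.5e-14) at 72 h. CCRL2, the atypical receptor of chemerin, had 4, 3 and 3 counts in DMSO and 28, 16 and 8 at 48 h and did not pass the limits (adjusted p = 6.0e-04).

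**Figure D3:**
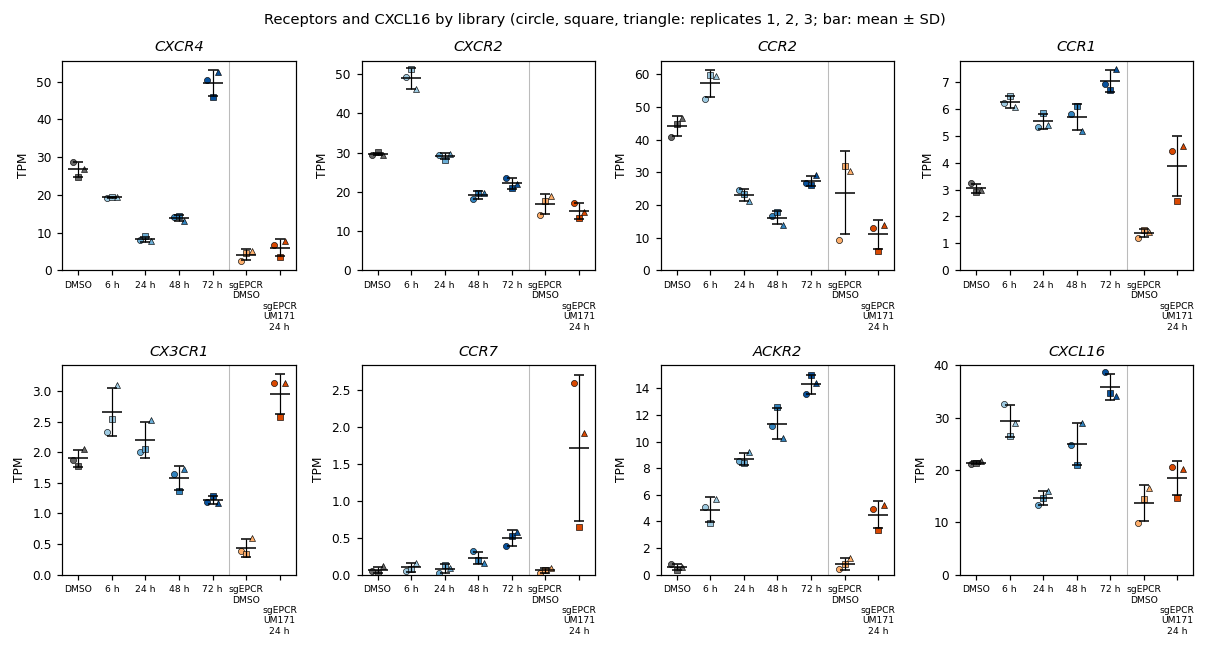
Levels (TPM, vertical axes from 0) of 7 receptors and the ligand CXCL16 in every library of the 7 groups (horizontal axes), with mean ± SD. CXCR4 falls to 7.82 to 8.97 TPM at 24 h and reaches 45.9 to 52.6 TPM at 72 h, ACKR2 is higher at each later time, and 1 library of each sgEPCR group lies apart from its replicates for CCR2.

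Some markers of other blood cells also moved over the same times. Of 4 T cell markers CD3G stayed under 0.1 TPM throughout and CD3D went from 0.11 to 0.80 TPM in DMSO to 13.3 to 18.8 TPM at 48 h, with the summed list at 0.14 to 0.80 and 13.7 to 19.3 TPM. Of 3 B cell markers MS4A1 stayed under 0.1 TPM while CD79A went from 9.33 to 10.2 TPM in DMSO to 35.8 to 40.4 TPM at 48 h, with the summed list at 9.48 to 10.4 and 35.9 to 40.7 TPM. Of 4 megakaryocyte markers PF4 and GP9 stayed under 0.1 TPM and ITGA2B went from 0.97 to 1.54 TPM in DMSO to 16.1 to 20.2 TPM at 72 h, which made up nearly all of the list at both times. The summed list of 3 endothelial markers, with CDH5 under 0.1 TPM throughout, was at 42.1 to 46.0 TPM in DMSO and 12.7 to 13.8 TPM at 24 h, and again at 39.8 to 41.0 TPM at 72 h. PECAM1 alone made up nearly all of it. The summed list of 3 NK cell markers was at 15.7 to 15.8 TPM in DMSO, 10.5 to 14.7 TPM at 24 h and 23.8 to 26.4 TPM at 72 h, nearly all of it NKG7. The 10 myeloid markers summed to 551 to 650 TPM in sgEPCR DMSO and 1035 to 1094 TPM in sgEPCR UM171, against 1117 to 1164 TPM in control DMSO and 742 to 832 TPM in control cells at 24 h. Within that list ITGAM was at 12.01 to 14.2 TPM in DMSO and 95.99 to 100.3 TPM at 72 h, SPI1 at 403 to 426 and 204 to 226 TPM and CD34 at 4.34 to 5.15 and 0.92 to 1.18 TPM. The dendritic list, with CD1C under 0.1 TPM throughout, was at 0.35 to 0.47 TPM in DMSO and 2.39 to 3.0 TPM at 48 h. In sgEPCR DMSO and sgEPCR UM171 the T cell list was at 0 to 0.67 and 6.53 to 17.3 TPM and the megakaryocyte list at 0.13 to 0.55 and 1.95 to 10.2 TPM. In the same groups the endothelial list was at 5.45 to 7.94 and 15.05 to 30.97 TPM, the NK cell list at 2.68 to 7.32 and 6.77 to 13.7 TPM, the B cell list at 7.97 to 21.5 and 5.87 to 13.7 TPM and the dendritic list at 0.02 to 0.26 and 0.43 to 0.53 TPM. The part of these marker genes in the results on chemokines was not tested.

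The second question is whether cells with a guide RNA against EPCR respond in the same way. In sgEPCR cells at 24 h, 12 of the 24 tested chemokine genes rose and 1 fell, where 6.99% of all genes rose and 3.33% fell. In control cells, in the same fit of 12 libraries, 8 rose and 1 fell (5.36% and 1.67%). The median log2 fold change of the 24 genes was 2.45 in sgEPCR cells against -0.01 over all genes, and it was unchanged with CCRL2 and CXCR1, both at 0 in sgEPCR DMSO, at their lower bounds. CCL4, CCR7, CCRL2 and CXCR1 passed the low-count filter of this fit only through the sgEPCR UM171 libraries. Their higher counts there were a condition of being tested, and they are part of these counts and this median. Without the 2 libraries rich in mitochondrial counts, 15 rose and 1 fell in sgEPCR cells, adding CCL20, CXCR1 and CCR1. The share of all genes past the limits without these 2 libraries was not computed. Counts in that setting, here and below, therefore cannot be set against it.

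At an adjusted p under 0.05 with no minimum fold, 20 of the 24 genes changed in sgEPCR cells and 17 in control cells, where 52.1% and 44.7% of all genes did. By this limit 16 had a different response in sgEPCR cells, 12 a different level in DMSO and 19 in UM171, against 45%, 33.7% and 43% of all genes. With a 2-fold minimum these counts were 15, 5 and 11, against 25.9%, 11.6% and 14.4%.

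The difference between the 2 responses passed the limits for 5 of the 24 genes, all with the larger value in sgEPCR cells, against 3.6% of all genes with a larger and 4.17% with a smaller value there. They were CCL3, CCL3L3, CCL4L2, CCL5 and CXCR4. Without the 2 mitochondria-rich libraries 7 passed, the same 5 with CX3CR1, again larger in sgEPCR cells, and ACKR2, smaller. The spread between libraries was wider here than in the time course, with a common biological coefficient of variation of 0.187 against 0.0564, and the control libraries were labelled 72 h in DMSO but those of sgEPCR cells 24 h, while the study places the former at the start of the time course. Whether the DMSO times add to the difference cannot be told apart from the guide RNA.

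**Figure D4:**
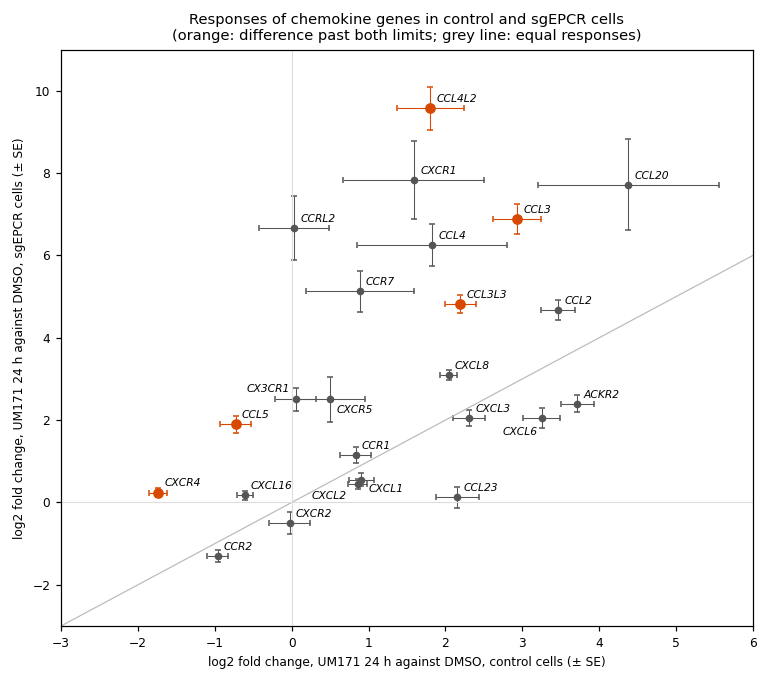
Log2 fold change ± SE of 24 chemokine genes in UM171 for 24 h against DMSO, in control cells (horizontal axis) and in sgEPCR cells (vertical axis). The grey line marks equal responses and orange marks the 5 genes whose difference passed both limits: CCL4L2, CCL3, CCL3L3, CCL5 and CXCR4, all above the line.

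CCL3 and CCL4 and their copies reached their highest levels in sgEPCR cells in UM171. CCL3 measured 0.47, 2.16 and 0.95 TPM in sgEPCR DMSO and 230, 79.4 and 232 TPM in sgEPCR UM171, where control cells at 24 h had 14.2 to 27.6 TPM. CCL3L3 measured 2.52, 3.89 and 3.99 TPM in sgEPCR DMSO and 151, 71.0 and 161 TPM in sgEPCR UM171. Every sgEPCR UM171 library lay above every control library of any time, and the lowest of them was replicate 2, rich in mitochondrial counts. CCL3 rose by 6.88 (SE 0.36) on the log2 scale and CCL3L3 by 4.82 (SE 0.23), against 2.93 (SE 0.31) and 2.20 (SE 0.20) in control cells. These differences were 3.95 (SE 0.46, adjusted p = 5.9e-05, edgeR) for CCL3 and 2.62 (SE 0.29, adjusted p = 4.0e-05) for CCL3L3. Without the 2 mitochondria-rich libraries they were 4.15 (SE 0.50) and 2.91 (SE 0.30), and for the summed pair, with all libraries, 3.25 (SE 0.31, adjusted p = 1.5e-05). CCL3 assigned counts made up 52.6% to 59.8% of the pair in sgEPCR UM171. The CCL3 call was lost in 10 of the 12 fits that left out 1 library, at adjusted p of 1.0e-04 to 3.5e-04 with differences of 3.68 to 4.35, and kept only without UM171 24 h replicate 3 or sgEPCR UM171 replicate 2. The CCL3L3 call was lost in 9 of 12 (adjusted p from 1.6e-04 to 2.7e-04) and kept without either of these or without sgEPCR DMSO replicate 1.

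CCL4L2 had 1, 0 and 0 counts in sgEPCR DMSO and 458, 219 and 499 in sgEPCR UM171, a ratio of 1149 scaled for depth (95% counting interval 206 to 45436). In control cells it had 20, 15 and 16 counts at 24 h. CCL4, another attractant of monocytes, had 0, 4 and 3 counts in sgEPCR DMSO and 208, 162 and 238 in sgEPCR UM171, and rose by 6.25 on the log2 scale (SE 0.51, adjusted p = 2.7e-06). In control cells CCL4 had at most 4 counts at 24 h, and the gap between both responses, 4.42 (SE 1.71, adjusted p = 0.056), was not past the limits. The canonical transcripts of CCL4 and CCL4L2 are 96.2% identical. Summed, the pair had 381 to 737 counts in sgEPCR UM171, and the gap between both responses was 5.71 (SE 0.60, adjusted p = 2.9e-05). For CCL4L2 alone the fitted difference of 7.77 (SE 0.87, adjusted p = 4.7e-05) rests on a single count in sgEPCR DMSO. Without the mitochondria-rich libraries it was 10.09 (SE 1.06, adjusted p = 1.7e-06). Its call was lost in 9 of the 12 fits that left out a library (adjusted p from 1.1e-04 to 4.0e-04), and it was kept without UM171 24 h replicate 3, sgEPCR DMSO replicate 1 or sgEPCR UM171 replicate 2.

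CCL5 had fold changes of opposite sign in the 2 kinds of cells. It measured 30.6, 43.9 and 45.2 TPM in sgEPCR DMSO and 200, 142 and 193 TPM in sgEPCR UM171, without overlap. Its log2 fold change was 1.90 (SE 0.20, adjusted p = 2.1e-05) in sgEPCR cells and -0.73 (SE 0.20, adjusted p = 0.012) in control cells, which lay at 45.6 to 55.5 TPM in UM171 at 24 h. The difference was 2.63 (SE 0.29, adjusted p = 3.7e-05), and without the mitochondria-rich libraries 2.69 (SE 0.09, adjusted p = 1.1e-11). Leaving out 1 library lost this call in 9 of 12 fits (adjusted p from 1.0e-04 to 2.4e-04, differences 2.42 to 2.87), and it was kept without sgEPCR DMSO replicate 1, sgEPCR UM171 replicate 2 or sgEPCR UM171 replicate 3. The rise within sgEPCR cells was lost without sgEPCR DMSO replicate 2 or 3 (adjusted p = 1.5e-04 and 2.0e-04).

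CXCR4 was lower in sgEPCR cells than in control cells in DMSO. The DMSO labels were 24 h and 72 h in turn, so DMSO time and guide RNA cannot be told apart here. CXCR4 measured 2.54, 4.66 and 5.16 TPM in sgEPCR DMSO, against 24.8 to 28.8 TPM in control DMSO, a log2 difference of -2.28 (SE 0.12, adjusted p = 7.9e-07). It was the only 1 of the 24 chemokine genes to differ between the cells in DMSO, where 1.41% of all genes were lower in sgEPCR cells and 1.43% higher. Without the mitochondria-rich libraries CX3CR1 was lower as well, by a log2 difference of -1.90 (SE 0.19, adjusted p = 7.9e-07). In UM171 the sgEPCR libraries had 6.63, 3.39 and 7.84 TPM, a range that overlapped the 7.82 to 8.97 TPM of control cells, with a log2 difference of -0.30 (SE 0.12, adjusted p = 0.060). The response of CXCR4 was thus -1.74 (SE 0.12) in control and 0.24 (SE 0.12, adjusted p = 0.12) in sgEPCR cells. The difference of 1.98 (SE 0.17, adjusted p = 6.8e-06) was past the limits in all 12 fits that left out a library and was 2.08 (SE 0.15, adjusted p = 1.9e-08) without the mitochondria-rich libraries.

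CXCL8 and CCL2 rose in both kinds of cells, and their differences did not pass the limits. CXCL8 measured 39.6, 106 and 104 TPM in sgEPCR DMSO and 898, 499 and 873 TPM in sgEPCR UM171, with a log2 fold change of 3.09 (SE 0.11, adjusted p = 1.4e-08) against 2.04 (SE 0.11) in control cells. CCL2 measured 42.0, 64.6 and 62.1 TPM in sgEPCR DMSO and 1917, 1339 and 1936 TPM in sgEPCR UM171, with a log2 fold change of 4.68 (SE 0.24, adjusted p = 9.3e-08) against 3.46 (SE 0.22). The groups did not overlap for either gene, and without the mitochondria-rich libraries the log2 fold changes were 2.96 and 4.72. The differences were 1.05 (SE 0.15, adjusted p = 2.3e-04) for CXCL8 and 1.21 (SE 0.29, adjusted p = 6.0e-03) for CCL2. For the neighbours of CXCL8 the differences were -0.26 (SE 0.29) for CXCL3, -1.20 (SE 0.34) for CXCL6, -0.35 (SE 0.23) for CXCL1 and -0.41 (SE 0.18) for CXCL2, none past the limits. CXCL1, at 16.1, 29.8 and 32.2 TPM in sgEPCR DMSO and 49.5, 35.75 and 43.97 TPM in sgEPCR UM171, did not overlap either, with a log2 fold change of 0.56 (SE 0.16, adjusted p = 0.015). CXCL3 measured 0.37, 1.07 and 0.99 TPM in sgEPCR DMSO and 4.60, 1.8 and 5.09 TPM in sgEPCR UM171, and CXCL6 0.11, 0.64 and 0.47 TPM and 2.45, 1.06 and 2.25 TPM, without overlap. In sgEPCR cells CXCL3 and CXCL6 each rose by 2.05 on the log2 scale (adjusted p = 1.0e-05 and 3.5e-05). The CXCL3 call was lost without sgEPCR DMSO replicate 3 (adjusted p = 1.4e-04), and the CXCL6 call in 9 of 12 fits (adjusted p from 1.1e-04 to 3.7e-04), all but those without sgEPCR DMSO replicate 1 or 2 or sgEPCR UM171 replicate 2.

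ACKR2 rose in sgEPCR cells from 0.38, 0.79 and 1.24 TPM to 4.91, 3.36 and 5.24 TPM (log2 fold change 2.39, SE 0.21, adjusted p = 4.1e-06). Control cells reached 8.41 to 9.22 TPM at 24 h, and sgEPCR minus control was -1.32 (SE 0.29, adjusted p = 3.5e-03), or -1.46 (SE 0.22, adjusted p = 3.1e-05) without the mitochondria-rich libraries. CX3CR1 measured 0.38, 0.33 and 0.60 TPM in sgEPCR DMSO and 3.14, 2.57 and 3.14 TPM in sgEPCR UM171 (log2 fold change 2.502, SE 0.29, adjusted p = 3.5e-05), while in control cells its log2 fold change was 0.05 (SE 0.26). Its rise in sgEPCR cells was lost in 8 of 12 fits (adjusted p from 1.0e-04 to 3.3e-04) and kept without sgEPCR DMSO replicate 1 or 2 or sgEPCR UM171 replicate 2 or 3. The difference between the responses, 2.45 (SE 0.39, adjusted p = 4.7e-04), passed the limits only without the 2 mitochondria-rich libraries, at 2.48 (SE 0.23, adjusted p = 3.3e-07).

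CCR7 had 1, 1 and 4 counts in sgEPCR DMSO and 111, 37 and 110 in sgEPCR UM171, and rose by 5.13 (SE 0.50, adjusted p = 9.4e-06), a call that was lost without sgEPCR DMSO replicate 2 (adjusted p = 1.1e-04). CCR2 was low in both mitochondria-rich libraries. It measured 9.24, 31.9 and 30.2 TPM in sgEPCR DMSO and 12.9, 6.00 and 13.9 TPM in sgEPCR UM171, so that the groups overlapped through DMSO replicate 1, and the low value of each group was the mitochondria-rich library. CD33, a myeloid surface marker, was low in the same 2 libraries, at 43.7 TPM in sgEPCR DMSO replicate 1 and 34.6 TPM in sgEPCR UM171 replicate 2, against 94.7 to 119 TPM in the other 4. Not all markers of the myeloid list were low there. PTPRC was highest in these libraries, at 244 TPM against 102 and 113 in sgEPCR DMSO and 579 TPM against 254 and 262 in sgEPCR UM171. FCGR2A was at 147 TPM against 135 and 147, and at 333 TPM against 293 and 287. The log2 fold change of CCR2 was -1.30 (SE 0.14, adjusted p = 2.5e-05), and -1.40 (SE 0.07, adjusted p = 3.9e-10) without these libraries. Its call was lost without sgEPCR DMSO replicate 2 or 3 or sgEPCR UM171 replicate 1 or 3 (adjusted p from 1.3e-04 to 2.1e-04).

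CXCR1, CCRL2 and CCL20 were nearly absent from sgEPCR DMSO and present in sgEPCR UM171 without passing the limits. CXCR1 had no counts in sgEPCR DMSO and 27, 15 and 43 in UM171, at least 27.7-fold higher (adjusted p = 1.3e-04). CCRL2 had 0 counts in DMSO and 11, 10 and 15 in UM171, at least 11.7-fold higher (adjusted p = 1.1e-04). CCL20 had 1, 1 and 0 counts in DMSO and 77, 284 and 91 in UM171 (adjusted p = 1.7e-04), and its highest value came from the mitochondria-rich replicate 2, which was the lowest of its group for CCL2, CCL3, CCL5 and CXCL8. Without the 2 libraries CXCR1 and CCL20 passed the limits, with adjusted p of 1.4e-05 and 5.8e-08, and CCRL2 did not (adjusted p = 1.3e-04). CCR1 likewise passed the limits only without them, at a log2 fold change of 1.43 (SE 0.11, adjusted p = 3.5e-08) against 1.15 (SE 0.20, adjusted p = 7.2e-04) with them. CCL23, which rose in control cells, had a log2 fold change of 0.12 (SE 0.25) in sgEPCR cells, where it measured 2.36, 3.82 and 4.16 TPM in DMSO and 5.96, 3.08 and 5.50 TPM in UM171.

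Compared directly in UM171, 6 of the 24 genes were higher in sgEPCR than in control cells and none lower, against 2.67% and 1.79% of all genes. These were CCL3, CCL3L3, CCL4, CCL4L2, CCL5 and CCR7, with log2 differences from 1.86 (SE 0.19, adjusted p = 3.1e-05) for CCL3L3 to 6.27 (SE 0.49, adjusted p = 4.9e-06) for CCL4. Leaving out UM171 24 h replicate 2 reduced the count to 2 and replicate 1 of that group to 3. CCL4 and CCL4L2 kept the call in all 12 fits. Of the 6, CCL4 and CCR7 passed the low-count filter of the 12-library fit only through the sgEPCR UM171 libraries. Without the mitochondria-rich libraries 10 genes differed, the same 6 with CCL20 and CXCR1, also higher, and CXCL1 and CXCR2, lower by log2 differences of -1.24 (SE 0.08, adjusted p = 8.8e-09) and -1.08 (SE 0.05, adjusted p = 1.3e-10).

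Some genes that act after chemokine receptors passed the limits. Of 29 genes of G protein signalling and receptor desensitisation, all of them tested, 2 rose at 6 h, 4 rose and 1 fell at 24 h, 5 rose and 1 fell at 48 h, and 6 rose and 1 fell at 72 h. Of all genes 6.78%, 9.03%, 11.7% and 15% rose and 0.247%, 4.7%, 4.67% and 5.8% fell at these times, so the counts of the list are near these shares. Those that rose at 72 h included RGS1 and RGS2, which shorten G protein signals, by 4.68 (SE 0.21, adjusted p = 2.1e-12) and 3.59 (SE 0.14, adjusted p = 3.4e-13), and GRK3, a kinase that switches off activated receptors, by 1.36 (SE 0.05, adjusted p = 1.2e-13). The others that rose at 72 h were PREX1, RGS16 and PIK3R6, and PIK3R5 fell. The difference between the sgEPCR and control responses passed the limits for 2 of the 29. These were GRK3, at -1.54 (SE 0.13, adjusted p = 5.2e-06), and RGS19, at 1.09 (SE 0.12, adjusted p = 3.3e-05). Of all genes 4.17% had a smaller and 3.6% a larger value in sgEPCR cells, so 1 gene each way is near that share. The median log2 fold change of the 29 was 0.07 at 72 h, beside 0.02 for all genes.

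Several other receptors for leukocyte attractants passed the limits. Of 21 such genes 18 were tested, and at 72 h 9 rose and 2 fell, where 15% of all genes rose and 5.8% fell. C5AR1, the receptor of complement C5a, rose by 5.16 (SE 0.13, adjusted p = 2.3e-15), GPR84, a receptor of medium-chain fatty acids, by 4.27 (SE 0.11, adjusted p = 1.3e-15), and FPR1, a receptor of formyl peptides, by 2.546 (SE 0.25, adjusted p = 6.4e-08), while GPR183, an oxysterol receptor, fell by 3.59 (SE 0.10, adjusted p = 7.9e-15). In sgEPCR cells at 24 h 8 of the 18 rose and none fell, against 6.99% and 3.33% of all genes, and the difference between the responses passed the limits for CYSLTR2, PTAFR, GPR183 and HCAR3, all larger in sgEPCR cells, against 3.6% of all genes. Of 7 chemokines and binding partners named outside the rule 4 were tested, and DPP4, a protease that trims chemokines, rose at 48 h (log2 fold change 2.27, SE 0.16, adjusted p = 1.3e-09), at 72 h (3.14, SE 0.16) and in sgEPCR cells (3.83, SE 0.42, adjusted p = 2.4e-05).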

How the data were processed

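RNA of 21 libraries in 7 groups of 3 was analysed. The deposited files hold, per gene, expected counts and TPM that the authors made with RSEM 1.2.28 after CASAVA 1.8.2, Trimmomatic 0.35 and STAR 2.5.1b on GRCh38, per the submitters' processing notes, while the study's methods name another quantifier. RSEM divides reads shared by similar genes, so levels of near-identical genes depend on that division. TPM values were used as deposited. Expected counts were rounded and tested in edgeR 4.0.16 (R 4.3.3) with TMM scaling, its low-count filter and the quasi-likelihood test, over all genes that passed, with Benjamini-Hochberg adjustment. One fit held the 15 time-course libraries and another the 12 libraries of DMSO and 24 h UM171 with and without sgEPCR. Its interaction term tests the difference between the responses. Called genes passed an adjusted p of 0.0001 and 2-fold. The procedure was tested on simulated data. Full values are given for genes called in at least 1 comparison and the others by counts and range. One low-count member is not reported here by name. The members and gene lists were chosen with earlier results of these data known. Library totals were 24.3 to 51.5 M, and counting intervals (95%, Clopper-Pearson on summed counts) and floors of 3 counts cover counting error only. Gene positions are from GENCODE 44 and promoters from RefSeq GRCh38.p14. Identity of transcripts was computed with Biopython 1.88 and figures were drawn with matplotlib 3.10.9. The results were recomputed with limma 3.58.1 on TPM after adding 1 and taking log2, with DESeq2 1.42.0, and under other scalings and filters, a replicate block, looser limits and without single libraries.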

Additional observations from a re-analysis of the deposited data

Results flagged for a closer look

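The interaction test found a different response to UM171 in sgEPCR and control cells for 5 chemokine genes. The difference, sgEPCR minus control on the log2 scale, was 7.77 (SE 0.87) for CCL4L2, 3.95 (SE 0.46) for CCL3, 2.63 (SE 0.29) for CCL5, 2.62 (SE 0.29) for CCL3L3 and 1.98 (SE 0.17) for CXCR4. CXCR4 kept its call in all 12 fits without 1 library. The other 4 lost theirs in 9 or 10 of these 12 fits, at adjusted p between 1.0e-04 and 4.0e-04 (edgeR), and all 5 had larger values without the 2 mitochondria-rich libraries. The value of CCL4L2 rests on 1 count in sgEPCR DMSO. Summed with their near copies, CCL4 and CCL4L2 differed by 5.71 (SE 0.60) and CCL3 and CCL3L3 by 3.25 (SE 0.31). For CXCR4 the sgEPCR libraries lay below the control libraries in DMSO, while in UM171 the ranges overlapped. The DMSO libraries were labelled 72 h in control cells and 24 h in sgEPCR cells. For all 5 genes DMSO time and guide RNA therefore cannot be told apart.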

How the results depend on the processing

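For the 20 genes past the limits in at least 1 comparison, log2 fold changes that were past the limits or over 2-fold kept their direction under the alternatives run. Of these 2461 values, 2259 stayed on their side of the limits, 162 dropped below them and 40 passed them. Counts of chemokine genes past the limits changed as follows. DESeq2 gave 8 in place of 5 for the difference between the responses and 3 in place of 1 for sgEPCR against control cells in DMSO. limma gave 8 in place of 13 for the sgEPCR response, 1 for the difference, 0 for the DMSO levels (7 at an adjusted p and 13 at an unadjusted p under 0.05) and 2 in place of 6 for the UM171 levels. Under total count scaling the median log2 fold change of all genes was 0.20 at 6 h, 0.12 for the difference and -0.25 for the DMSO levels. With TMM these medians were 0.02, -0.02 and 0.0003. Total count scaling gave 5 in place of 3 at 6 h, 2 for the difference and 3 for the UM171 levels. At least 10 counts in every library gave 3 for the UM171 levels, and a single fit of all 21 libraries 3 for the DMSO levels. Without the 2 mitochondria-rich libraries 2 genes differed in DMSO and 10 in UM171, with no share over all genes computed. An adjusted p under 0.05 with no minimum fold gave 18, 18, 21 and 24 at 6, 24, 48 and 72 h, 18, 19 and 16 for the later steps, 20 for the sgEPCR response, 16 for the difference, 12 in DMSO and 19 in UM171. With the 2-fold minimum it gave 7 at 6 h, 6 between 48 and 72 h, 15 for the difference, 5 in DMSO and 11 in UM171.

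Leaving out 1 library gave 3 to 3, 11 to 12, 12 to 13 and 12 to 13 genes at 6, 24, 48 and 72 h and 6 to 8, 4 to 6 and 2 to 3 for the later steps. It gave 8 to 14 for the sgEPCR response, with 8 without sgEPCR DMSO replicate 3. For the difference it gave 1 to 5, with 1 without any of DMSO replicates 1, 2 and 3, UM171 24 h replicates 1 and 2, sgEPCR DMSO replicates 2 and 3 or sgEPCR UM171 replicate 1, and 2 without sgEPCR UM171 replicate 3. It gave 1 to 1 for the DMSO levels and 2 to 7 for the UM171 levels, with 2 and 3 without UM171 24 h replicates 2 and 1. Where a count changed, the cause was not tested.

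Replicate numbers did not pair the samples. Deviations of same-numbered time-course libraries correlated between -0.060 and 0.064, and in sgEPCR cells the correlations were -0.568, -0.571 and 0.414. Under other numbers, the mitochondria-rich sgEPCR DMSO replicate 1 and sgEPCR UM171 replicate 2 correlated at 0.660. The remaining sgEPCR DMSO and sgEPCR UM171 libraries correlated with each other at 0.414 to 0.489. The labels do not say whether libraries share a clone, so a block by number need not match any true pairing. With the replicate number as a block, 3, 11, 13 and 12 chemokine genes were called at 6, 24, 48 and 72 h, 3 for the sgEPCR response and 0 for the difference (edgeR, 13 at an adjusted and 16 at an unadjusted p under 0.05). Over all genes the block took the calls from 1642 to 114 for the sgEPCR response and from 1236 to 0 for the difference. For the difference 5018 of all genes had an adjusted p under 0.05. The 0 is thus not particular to the chemokine genes. No block could be had for sgEPCR against control cells.

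The summed pairs of near copies were chosen after seeing the data. The 39 untested genes, with at most 15 counts in any library, were too shallow for the test, and for some of them only a ratio of summed counts is given.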
